A study of Drosophila melanogaster with 3 samples.

Results

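Drosophila melanogaster carries 35 protein-coding genes with a glutathione S-transferase (GST) symbol of the Delta, Epsilon, Omega, Sigma, Theta or Zeta class, out of 13945 protein-coding genes on the 6 chromosome arms used here. They were chosen by symbol alone, as Gst followed by the class letter D, E, O, S, T or Z and a digit. The binding of Eip75B at these genes was read from peak lists of 1 ChIP-seq experiment on whole prepupae, with 3 biological replicates in 1 group and no second condition. The animals were of the Eip75B-MiMIC-GFP line, in which an extra eGFP exon sits in an intron of Eip75B and yields a fusion protein from that gene. Chromatin was sheared by sonication to between 200 and 800 bp and pulled down through the GFP part of the fusion. The sexes were pooled, the age within the prepupal stage is given as unknown, and the labels do not say which Eip75B isoforms carry the tag. Because whole animals were used, a site bound strongly in few cells and a site bound weakly in many cannot be told apart.

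GSTs join the tripeptide glutathione to reactive or fat-soluble molecules, which makes them easier to excrete, and some also reduce peroxides or act as isomerases. In insects the Delta and Epsilon classes are greatly expanded in tandem gene clusters and are best known for breaking down insecticides and plant toxins, whereas the Omega, Sigma, Theta and Zeta classes are shared with many other animals. Eip75B (E75) is a nuclear receptor that binds heme, and ecdysone, the hormone that triggers moulting, switches its gene on. GstE14, also called noppera-bo, is the member best known in ecdysone biology, since it is required for ecdysteroid synthesis in the prothoracic gland. A promoter peak is here a summit within 1 kb of any annotated transcript start of a gene, and signal is the peak caller's own value for a region as the authors deposited it, used only to rank regions within 1 list. The authors' optimal list after IDR, a comparison of peak ranks between replicates, held 7803 peaks with a lowest signal of 92.6, a median of 164 and a highest of 3259. The longer lists of each replicate and of the replicates pooled held 30000 regions each, background included. Between 78.3% and 80.0% of the 7803 strongest regions were shared between replicates, depending on the pair.

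The sequences under those GST summits that lie on arms 3R and X are shown so that the base composition at a strong peak and at weaker ones can be read directly. Each is the reference sequence (Release 6, dm6, from RefSeq) from 50 bp on one side of the pooled summit to 50 bp on the other, 5′ to 3′ on the strand of the gene. Capitals mark GAGAG, or CTCTC where the motif is on the other strand. The first lies upstream of GstT4 (chrX:13404438-13404538, plus strand), the second upstream of GstD1 (chr3R:12369503-12369603, minus strand), and the others in introns of GstZ2 (chr3R:9459793-9459893 and chr3R:9459992-9460092, minus strand).
GstT4: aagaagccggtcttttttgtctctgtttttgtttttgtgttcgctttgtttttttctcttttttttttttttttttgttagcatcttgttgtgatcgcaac
GstD1: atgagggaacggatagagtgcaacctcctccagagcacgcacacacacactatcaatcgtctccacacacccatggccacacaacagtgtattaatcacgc
GstZ2, stronger summit: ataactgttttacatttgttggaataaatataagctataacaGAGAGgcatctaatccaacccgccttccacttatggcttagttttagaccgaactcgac
GstZ2, weaker summit: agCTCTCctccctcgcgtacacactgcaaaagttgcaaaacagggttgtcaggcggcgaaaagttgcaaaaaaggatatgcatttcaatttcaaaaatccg

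The GstT4 window is rich in T and has a GC content of 30.7%, against 37.6% and 44.6% at GstZ2 and 51.5% at GstD1. None of the 4 windows held a nuclear receptor core site written as AGGTCA or GGGTCA, and GAGAG was the only motif searched that occurred in them.

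Of the 35 GST genes, 8 had a promoter peak in the optimal list, or 22.9% (95% exact interval 10.4 to 40.1%, which covers counting error only), against 23.6% of all protein-coding genes. The genes were GstE13, GstT4, GstE12, GstT1, GstZ2, GstE11, GstD1 and GstS1. Among the 7803 strongest regions of each replicate, 6 GST genes had a promoter peak in replicate 1, 8 in replicate 2 and 7 in replicate 3 (7.0 ± 1.0, SD, n = 3), against 24.9%, 25.7% and 24.1% of all genes. The share of the family as a whole was thus near that of all genes.

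By class, 1 of 11 Delta genes, 3 of 14 Epsilon genes, 0 of 3 Omega genes, 2 of 4 Theta genes, 1 of 2 Zeta genes and the single Sigma gene had a promoter peak. Gene arrangement divided the family further. The tandem GstD cluster had 1 gene of 11 with a peak (9.09%, exact interval 0.230 to 41.3%) and the tandem GstE cluster had 0 of 10, which allows a share of up to 30% by a limit of 3 genes and 30.8% by the exact interval. The genes of the GstD and GstE clusters are short, with median lengths of 808 and 809.5 bp. Of all protein-coding genes under 1500 bp, 12.4% had a promoter peak, a share inside the exact intervals of both clusters. The 14 GST genes outside these clusters had 7 (50%, exact interval 23.0 to 77.0%), against 23.6% of all protein-coding genes. They are not all lone genes, since GstO1 to GstO3, GstT1 with GstT2, and GstZ1 with GstZ2 form shorter runs. Among the Epsilon genes outside the cluster, 3 of 4 had a peak, namely GstE11, GstE12 and GstE13 but not GstE14. The exact intervals of all these groups and of each class overlap one another, and every one includes the 23.6% of all protein-coding genes. No test was made between the groups, since they are small and the members were chosen with earlier results of these data known.

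**Figure D1:**
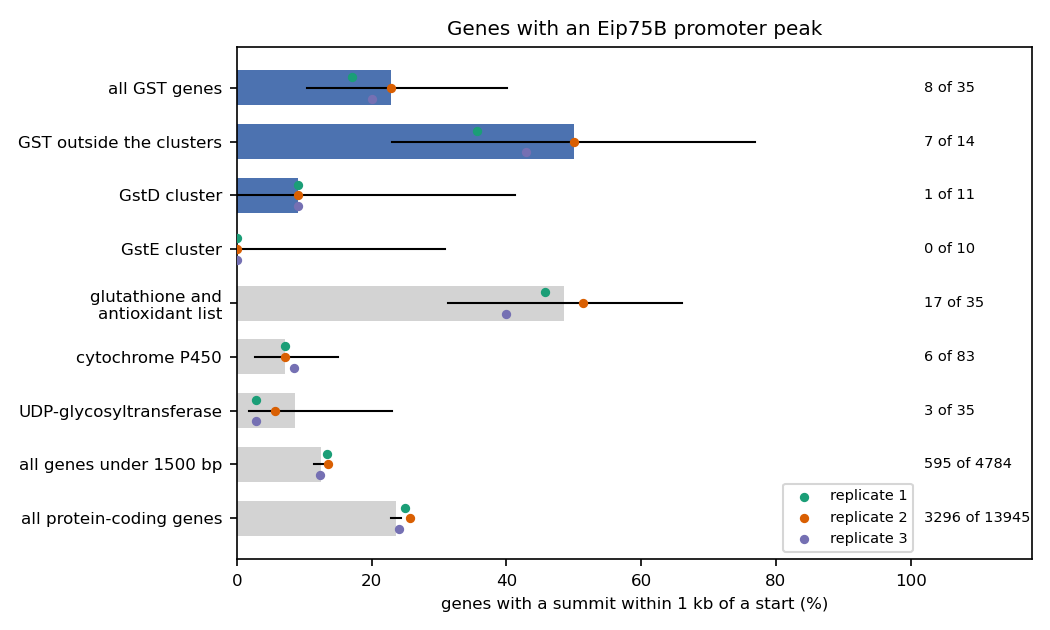
Percentage of genes with an Eip75B summit within 1 kb of a start, for GST genes (blue bars), other gene groups and all protein-coding genes (grey bars). Bars are the optimal list, black lines the 95% exact intervals, dots the 7803 strongest regions of each replicate, and counts stand at the right. GST genes outside the clusters reach 50% and the GstE cluster lies at 0, against 23.6% for all protein-coding genes and 12.4% for those under 1500 bp.

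GstE13 carried by far the strongest GST peak. Its gene lies on arm 2R from 9122125 to 9123309 on the plus strand, and the pooled summit at 9122204 falls in its 5′ UTR, 79 bp downstream of the nearest start. The signal was 1615, which ranked 30 among all pooled regions. The region ranked 39 in replicate 1, 29 in replicate 2 and 27 in replicate 3, and the replicate summits lay within 6 bp of the pooled one. GstE13 is an Epsilon gene that stands alone, away from the GstE cluster.

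GstT4, a single-standing Theta gene on X (13404749 to 13409323, plus strand), was next. Its pooled summit at 13404488 lies 261 bp upstream of the start, with a signal of 570 and rank 492. The ranks in replicates 1, 2 and 3 were 675, 390 and 537, so that all 3 placed it among their strongest regions. The summits of the replicates lay within 14 bp of the pooled summit. GstE13 and GstT4 were the only GST genes whose peak signal was above 250, and the median signal over the 10 summits at GST genes was 148, against 164 over the optimal list.

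GstT1 and GstT2 are a pair of Theta genes in tandem on 2R, with 108 bp between the end of the first and the start of the second. The summit of GstT1 at 9605974 lies 14 bp upstream of its start (signal 187, rank 3239), and it ranked 5025, 3936 and 3223 in replicates 1, 2 and 3. GstT2 had no promoter peak, and its start lies 1318 bp from the GstT1 summit. A weaker region 75 bp upstream of GstT2 was listed in the pooled list at rank 12157, and the strongest region near its start ranked 10503, 12011 and 19206 in the replicates. Each of the tandem genes thus had a region of its own near its start in all 3 replicates, stronger at GstT1 in each list.

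GstE12, another Epsilon gene away from the cluster (2R, 24766718 to 24768172, minus strand), differed between replicates. Its pooled summit lies in the 5′ UTR, 48 bp downstream of the nearest start, with a signal of 227 and rank 2482. It ranked 1837 in replicate 2 and 3657 in replicate 3, whereas the 30000 regions of replicate 1 held none within 1 kb of a GstE12 start. The call therefore rests on replicates 2 and 3.

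GstE11 (2R, 18503608 to 18505025, plus strand) had a pair of overlapping optimal regions in intron sequence, with summits 370 and 589 bp downstream of the start and 219 bp apart. Their signals were 143 and 112 (ranks 4688 and 6271). The strongest region near the start ranked 4177 in replicate 1 and 4386 in replicate 2 but 10616 in replicate 3, which is below the 7803 strongest. These regions differ in place. Their summits lay 372 and 392 bp downstream in replicates 1 and 3 and 597 bp downstream in replicate 2. No region of replicate 2 held the stronger pooled summit. Replicates 1 and 3 listed 2 summits in the gene and replicate 2 listed 1.

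GstZ2 and GstZ1 are the Zeta genes, a class whose mammalian member isomerises maleylacetoacetate in tyrosine breakdown. GstZ2 (3R, 9456815 to 9460652, minus strand) had a pair of summits 199 bp apart in introns, the stronger 667 bp upstream of the nearest of its 3 starts (signal 154, rank 4286) and the weaker 610 bp downstream of the nearest start (signal 99.3, rank 7209). The region that held the summits ranked 2859, 6942 and 5185 in replicates 1, 2 and 3, with summits 30 to 46 bp from the stronger pooled one. GstZ1, its neighbour, had no promoter peak and no region of the pooled list near its start. The 3 replicates did list weaker regions within 77 bp of the GstZ1 start, at ranks 18177, 14291 and 12296.

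GstS1, the only Sigma gene, encodes a GST that is abundant in flight muscle and conjugates lipid peroxidation products. Its gene spans 6256 bp on 2R, the longest of the family, and the pooled summit lies in a 5′ UTR, 77 bp downstream of an internal start, with a signal of 105 and rank 6743. The region at that summit ranked 2547 in replicate 2 but 16191 in replicate 1 and 14821 in replicate 3. In those replicates the strongest GstS1 region lay elsewhere, 287 bp upstream of the nearest start at rank 8756 in replicate 1 and 469 bp upstream at rank 7030 in replicate 3. The position of the strongest GstS1 region thus differed between the replicates.

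**Figure D2:**
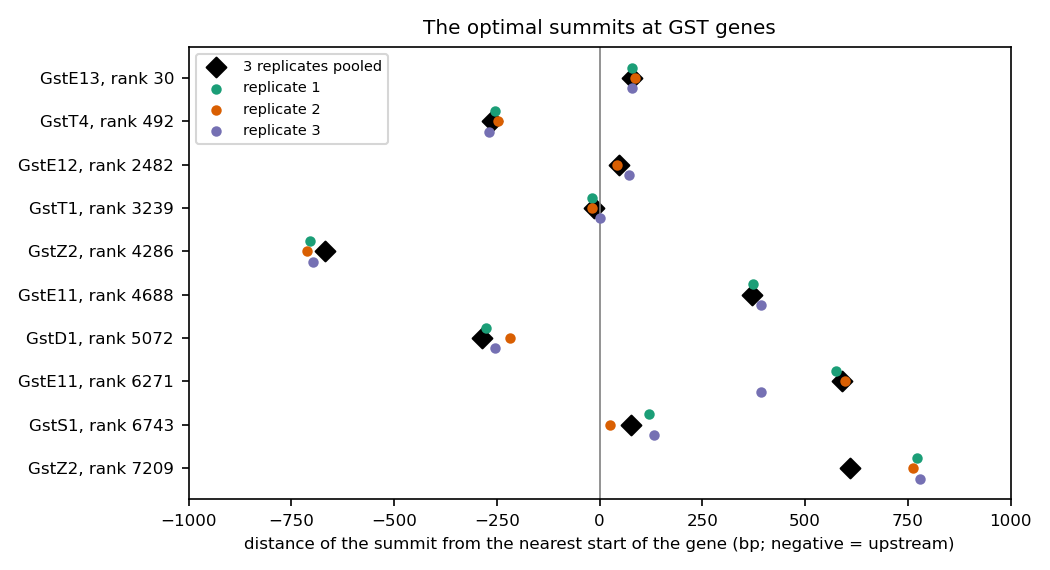
Distance in bp of each of the 10 optimal summits at GST genes from the nearest start of its gene, with the strongest at the top and its rank in the pooled list beside the name. Diamonds are pooled summits and dots the summit of the replicate region that holds it. Replicate dots sit on the diamond at GstE13, GstT4 and GstT1, no dot of replicate 1 is present at GstE12, and at the lowest line the dots lie apart from the diamond, since 1 region per replicate holds both GstZ2 summits and is drawn on both lines.

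Of the 10 optimal summits at GST genes, 3 lay in a 5′ UTR, 4 in introns and 3 outside the gene, upstream of it. The 4 in introns are the pairs of GstE11 and GstZ2, and merging overlapping regions left 8 separate ones. No such split of all optimal summits is given here. In all, 6 of the 10 summits lay in one of the 7803 strongest regions of every replicate (60%, exact interval 26.2 to 87.8%), against 65.2% of all optimal summits. At GstE12, GstE11 and GstS1 at least 1 replicate was missing. At all 8 GST genes with a promoter peak (100%) no start of another protein-coding gene lay within 1 kb of the strongest summit, against 49.4% of all genes with a promoter peak.

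The GstD cluster covers 20849 bp of 3R (12364776 to 12385624) and holds all 11 Delta genes, with CG10035 among them. Its only optimal peak was at GstD1, the Delta gene best known as an enzyme that acts on DDT and as a responder to oxidative stress. The pooled summit at 12369553 lies 285 bp upstream of the GstD1 start, in the interval that separates GstD10, GstD9 and GstD1 on the minus strand from GstD2 to GstD8 and GstD11 on the plus strand. Its signal was 133 and its rank 5072. The region at that summit ranked 5764 in replicate 1, 4859 in replicate 2 and 6572 in replicate 3, so that every replicate held it among its 7803 strongest.

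Apart from that summit, the GstD cluster had 7 weaker ones in the pooled list, at ranks from 11340 to 27092. The replicate lists held 7, 7 and 9 summits in the cluster in replicates 1, 2 and 3. At GstD11, at the far end, the strongest region near a start ranked 13278 in the pooled list and 14549, 14750 and 13454 in the replicates, a close recurrence below the optimal list. GstD2 had regions 943 and 915 bp upstream in replicates 1 and 3 (ranks 8679 and 13507), GstD3 had regions at ranks 28341 and 10831 in replicates 1 and 2, and GstD8 had regions at ranks 20471 and 26322 in replicates 1 and 2. GstD10 had 1 region, in replicate 3 at rank 26948. GstD4, GstD5, GstD6, GstD7 and GstD9 had none within 1 kb of a start in any list. The cluster itself held 1 optimal summit, whereas 32.7% of the 49 genomic windows of its length with at least as many gene starts held none.

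The GstE cluster covers 13198 bp of 2R (18396638 to 18409835) and holds GstE1 to GstE10. It had 0 summits in the optimal list and also 0 among the 30000 pooled regions. The replicates listed 3, 2 and 2 summits in it, at ranks from 13344 to 24982. GstE10 and the start of GstE1 overlap and point away from each other, and each replicate listed a region inside GstE10 and upstream of GstE1 that counts for both genes. It ranked 15142 in replicate 1, 13344 in replicate 2 and 18629 in replicate 3, with summits at 18397704, 18398264 and 18397734, so that the position in replicate 2 stands apart. GstE2 and GstE3 shared a region in replicate 2 at rank 24982, with a separate GstE3 region in replicate 3 at rank 22998. GstE5 and GstE6 shared a region in replicate 1 at rank 18895, and GstE4, GstE7, GstE8 and GstE9 had none in any list.

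Peaks did occur just beyond the GstE cluster. The nearest optimal summits, at 18412127 (signal 128, rank 5332) and at 18413838 (signal 1039, rank 111), lie on the side of imd, an immune signalling gene whose annotated end overlaps the cluster. The GstE9 start is 3079 bp from the nearer of them and the GstE1 start 13734 bp. The stronger summit ranked 110, 68 and 180 in the replicates. Among the 19 windows of the cluster's length with at least as many gene starts, 68.4% held no optimal summit and 52.6% no pooled summit. Windows with repeated genes were not set apart, so these shares do not show what gene density alone gives. The sources used here do not say how reads that match several similar gene copies were placed. The part of such reads in the counts of the clusters was not tested.

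**Figure D3:**
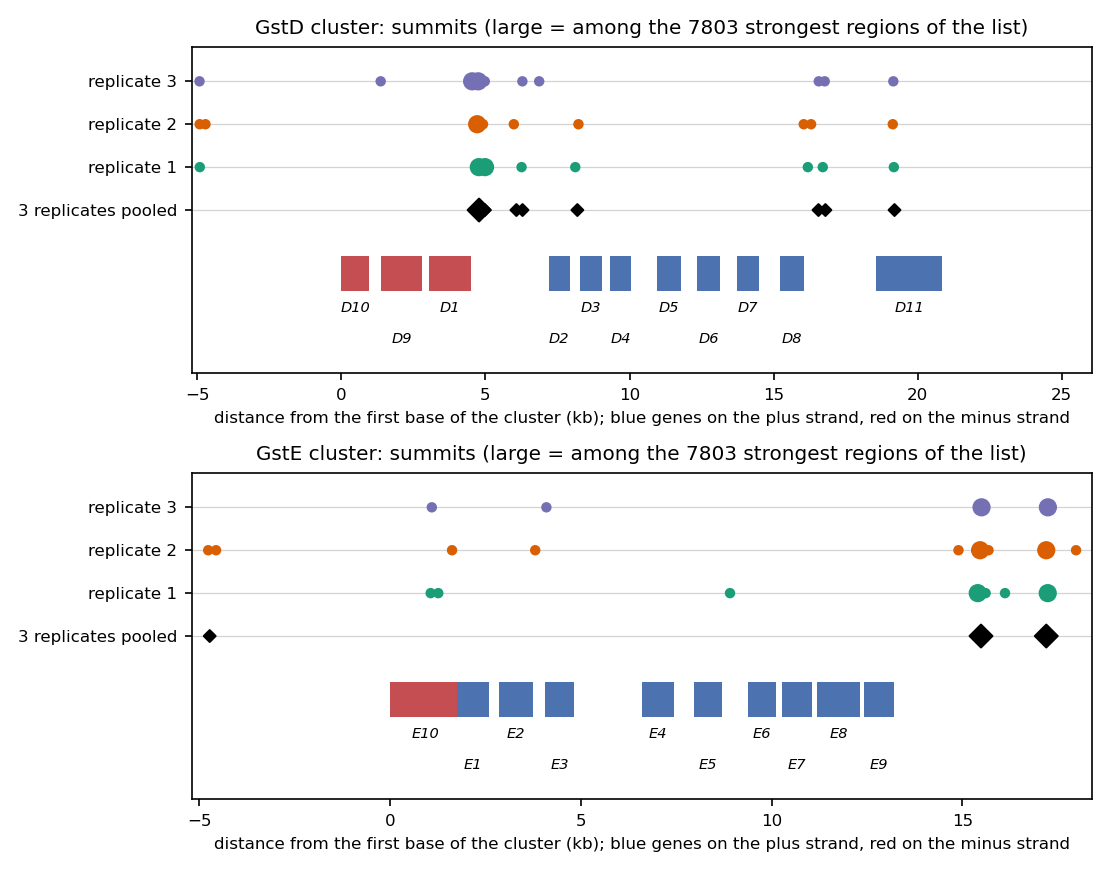
Summits along the GstD cluster (top) and the GstE cluster (bottom), with position as the distance in kb from the first base of the cluster and genes drawn as boxes. Each row of points is 1 list, and large points are among the 7803 strongest regions of that list. The GstD cluster has large points in every list only beside GstD1, and the GstE cluster has none inside, with large points beyond its end in every list, 15489 and 17200 bp from its first base in the pooled list.

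The remaining GST genes without a promoter peak were the Omega genes, GstT3 and GstE14. Omega GSTs act on dehydroascorbate and related substrates. Their neighbour se, a GST-fold relative that makes an eye pigment precursor, has no Gst symbol and was therefore not counted among them. GstO1 had its strongest region at rank 13320 in the pooled list and at ranks 10058, 21252 and 14212 in the replicates, with summits 219 to 872 bp upstream. GstO3 had none in the pooled list and ranked 29167, 9579 and 9986 in the replicates. GstO2 had no region near its start in any list, and the nearest optimal summit to its start was 23047 bp away. GstT3 ranked 25692 in the pooled list, 15746 in replicate 1 and 23445 in replicate 3, with none in replicate 2.

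GstE14, the ecdysteroid synthesis gene, had a single region, 85 bp upstream of its start at rank 20729 in replicate 1. The nearest optimal summit to its start was 9385 bp away. Binding at GstE14 was thus not detectable in the pooled list or in replicates 2 and 3, at a read depth that is not known.

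Across the whole lists, 14 of 35 GST genes had a region within 1 kb of a start in all 3 replicates (40.0%), against 35.3% of all protein-coding genes. A further 6 had one in 2 replicates and 5 in 1 replicate. In the whole pooled list, 14 of 35 had one (40.0%), against 41.5% of all genes. The 7 genes with a region in all 3 replicates and yet no promoter peak were GstD11, GstE1, GstE10, GstO1, GstO3, GstT2 and GstZ1. No region in any of the 4 whole lists was found near 10 of 35 GST genes (28.6%), against 43.7% of all genes.

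**Figure D4:**
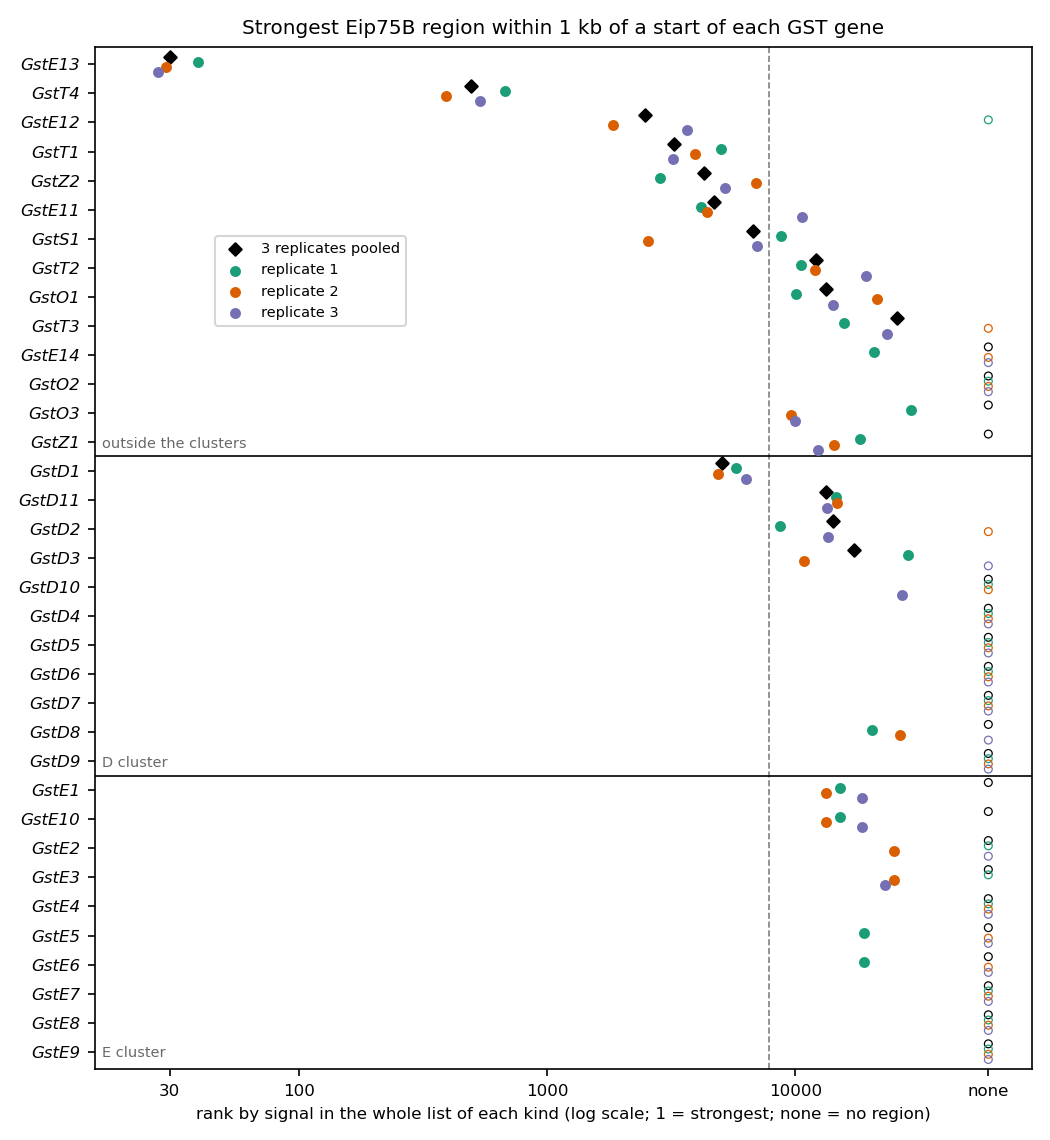
Rank by signal, on a log scale with 1 the strongest, of the strongest region within 1 kb of a start of each GST gene in the pooled list (diamonds) and in each replicate (dots), with open symbols where there is none. The dashed line marks rank 7803, the length of the optimal list. Filled symbols to the left of the line belong to genes outside the clusters and to GstD1, and every GstE cluster symbol lies to the right of it.

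Summits inside the gene body gave a similar count. A summit of the optimal list lay between the ends of 5 GST genes, GstE11, GstE12, GstE13, GstS1 and GstZ2 (14.3%, exact interval 4.81 to 30.3%), against 15.2% of all genes. The strongest regions of replicates 1, 2 and 3 gave 3, 6 and 4 of the 35 GST genes (4.33 ± 1.53, SD). Over all 13945 protein-coding genes they gave 2084, 2195 and 2183. All 5 of these genes also had a promoter peak, since their summits lay within 1 kb of a start.

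GST genes are short, with a median length of 1059 bp, against 2166 bp over all protein-coding genes. Of the 28 GST genes under 1500 bp, 5 had a promoter peak (17.9%, exact interval 6.06 to 36.9%), against 12.4% of all genes of that length. A summit in the body was found in 3 of the 28 (10.7%, exact interval 2.27 to 28.2%), against 1.8% of all genes of that length. These 3 were GstE11, GstE12 and GstE13.

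The members also differ in exon number, a feature examined after the peaks were seen. The 16 GST genes with a single exon, 7 in the GstD cluster and 9 in the GstE cluster, had 0 promoter peaks (an upper limit of 18.8% by 3 genes and of 20.6% by the exact interval), against 10.2% of all genes with 1 exon. The 19 GST genes with more exons had 8 (42.1%, exact interval 20.3 to 66.5%), against 26.1% of all genes with more than 1 exon. All 16 single-exon genes are in the clusters, and of the 5 cluster genes with more exons 1, GstD1, had a promoter peak, so exon number and clustering can hardly be told apart here.

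Other genes of glutathione and redox metabolism had promoter peaks in 17 of 35 cases (48.6%, exact interval 31.4 to 66.0%), against 23.6% of all protein-coding genes. The replicates gave 16, 18 and 14. These genes were longer than the GST genes, with a median of 3239 bp. Among the 4 regulators of detoxification, cnc, Keap1 and Hr96 had promoter peaks and maf-S had none. cnc encodes the Nrf2-type activator of oxidative stress genes (3 summits in its body and a strongest promoter peak of signal 482, rank 692). Keap1 encodes the protein that holds the activator in check, and its strongest promoter peak, 920 bp from a start, had a signal of 943 and rank 139. Hr96, a nuclear receptor of xenobiotic and lipid responses, had a signal of 549 and rank 548. maf-S, the partner of the activator on DNA, had no optimal promoter peak but one among the 7803 strongest regions of 2 replicates.

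By role, promoter peaks were found at 2 of 6 GST-fold and membrane relatives (exact interval 4.33 to 77.7%), 1 of 5 genes of glutathione synthesis and breakdown and 1 of 5 export pumps (each 0.505 to 71.6%), and 4 of 7 genes of glutathione and thioredoxin redox (18.4 to 90.1%). For the regulators, with 3 of 4, the interval was 19.4 to 99.4%. All these intervals include the 23.6% of all protein-coding genes. The 8 antioxidant enzymes had 6 (exact interval 34.9 to 96.8%), against the same 23.6%. This count varied, as the strongest regions of replicates 1, 2 and 3 gave 4, 6 and 3 of these enzymes. Cat, which encodes catalase, had a signal of 726 and rank 274, and MRP, a pump that exports glutathione conjugates, had 570 and rank 496. Gclc, the catalytic subunit of the enzyme that starts glutathione synthesis, and Clic, a channel protein with a GST fold, had no promoter peak. Clic did have 1 optimal summit in its gene body. At Keap1, Hr96 and MRP a start of another protein-coding gene also lay within 1 kb of the strongest summit, whereas at cnc and Cat none did.

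Other large detoxification families were counted in the same way. Cytochrome P450 genes, which oxidise toxins and hormones, had 6 of 83 (7.23%, exact interval 2.70 to 15.1%), against 23.6% of all genes. They were led by Cyp6u1 (signal 657), Cyp4d20 (529) and Cyp310a1 (271), whereas Cyp12a4 and Cyp12a5 had none. The Cyp4d20 summit lay 996 bp from its start, at the edge of the 1 kb window. The strongest regions of replicates 1, 2 and 3 gave 6, 6 and 7 P450 genes. UDP-glycosyltransferase genes, which add sugars to such molecules, had 3 of 35 (8.57%, exact interval 1.80 to 23.1%), with signals of 128 at Ugt316A1, 107 at Ugt317A1 and 105 at Ugt36D1. Ugt301D1 and Ugt302C1 had none. The replicates gave only 1, 2 and 1 UDP-glycosyltransferase genes (1.33 ± 0.577, SD, n = 3), and a promoter peak was among the strongest regions of 3 replicates at Ugt316A1, 1 at Ugt36D1 and 0 at Ugt317A1. At Cyp6u1 and Ugt316A1 a start of another protein-coding gene also lay within 1 kb of the summit. The share at GST genes, 22.9%, lay between these families and the glutathione and antioxidant genes, with an interval that overlaps all of them.

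Motifs were searched on both strands, in windows of 101 bp centred on the summits and in promoters from 250 bp upstream to 50 bp downstream of the start at the gene's 5′ end. AGGTCA and GGGTCA, the core sites of nuclear receptors, and TAGGTCA, an extended site that contains the first, were in 0 of 10 GST summit windows, against 2.51%, 1.92% and 0.743% of all optimal summit windows. TGACNNNGC, the site of the cnc and maf-S dimer, and TATCGATA were also in 0 of 10, against 2.08% and 0.871%. GAGAG was in 4 of 10 windows, at GstE11, GstS1 and both GstZ2 summits, against 12.2% of all summit windows and 15.97% of windows 300 bp to their left. The 10 windows come from 8 separate regions once overlapping ones are merged, and both GstZ2 windows lie in the same merged region. The count is therefore too small and too dependent to be read as an excess.

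In the GST promoters, GAGAG was found in 15 of 35 (42.9%), against 29.8% of all promoters. Of the GST genes with a promoter peak, GstD1, GstE11, GstE12 and GstZ2 were among the 15, and the GstD1 and GstE12 promoters held it in repeated runs. TGACNNNGC was found in 1 of 35, at GstE3, against 8.64% of all promoters, and TATCGATA in 2 of 35, at GstO1 and GstZ1, against 9.37%. These core and extended nuclear receptor sites were in 0 of 35, against 5.89%, 5.26% and 1.41% of all promoters. A match or its absence describes only the letters of these windows.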

How the data were processed

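The authors deposited peak lists on dm6 and dm3, and only the dm6 lists were used. Per the labels, every replicate has a list and so has their pool, both with background and meant as input for IDR, and an optimal list followed IDR. Per the deposited notes each list was made from the alignments and 1 further file shared by all lists. Not given in the sources used here are the aligner, the peak caller, the IDR threshold and the read numbers, which leaves the depth unknown. The signal of a region is the peak caller's value as deposited, and a summit is the deposited start plus the deposited offset in bp within the region, written 1-based.

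Gene models came from Ensembl release 115 (FlyBase annotation 6.54) and sequence from RefSeq on the same assembly, Release 6. Python 3.11.15 with numpy 2.4.6, pandas 2.3.3 and scipy 1.17.1 was used for counts and Clopper-Pearson intervals, and matplotlib 3.10.9 for plots. The optimal list equalled the 7803 highest-signal pooled regions, and as many regions were taken from each replicate. Neighbouring GST genes of a class less than 20 kb apart form a run, and the long GstD and GstE runs are the clusters. The shorter runs of Omega, Theta and Zeta genes count as outside the clusters. Counting was tested on simulated data, with 200 of 200 genes assigned as placed.

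There is 1 group, so no test was made. The members and lists were chosen with earlier results of these data known. Named were all GST genes, the 4 regulators, and of each further list up to 3 genes whose promoter peak had the highest signal and the first 2 alphabetically without one. The cyclophilins Cyp1 and Cyp40, which match Cyp and a digit, were left out of the P450 genes after the data were seen (with them 6 of 85). The division by exon number was also added then. In the glutathione and antioxidant list, PHGPx was matched as Gtpx, Trx-2 as Trx2, Jafrac1 as Prx2 and Jafrac2 as Prx4.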

Additional observations from a re-analysis of the deposited data

How the results depend on the processing

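Shorter or longer lists moved the counts of GST genes with a promoter peak (8 with the optimal list) as they moved those of all genes. The 3901 optimal peaks with the highest signal gave 4 (11.4%, against 13.98% of all genes), the optimal peaks found in all 3 replicates 5 (14.3%, against 16.6%), and the whole pooled list 14 (40.0%, against 41.5%). Without 1 replicate, when a peak had to be found in both others, the count was 5 to 6 (14.3 to 17.1%, against 18.2 to 18.4% of all genes), from lists of 5642 to 5815 peaks. For the GstD cluster (1), these were 0 with those 3901 peaks, 2 with a window of 2 kb and 4 with the whole pooled list. For summits in the gene body (5) those 3901 peaks gave 2, the peaks in all 3 replicates 2, and leaving out a replicate 2 to 3. The number of summits at GST genes (10) became 4 with those 3901 peaks, 6 with peaks in all 3 replicates, 22 with the whole pooled list, and 6 to 7 without 1 replicate. The body and summit counts are given here without a share of all genes, so they show only how each count changed with the list. The glutathione and antioxidant genes (17) fell to 9 with those 3901 peaks. The GstE cluster had 0 in every setting run. Of 55 alternatives, 38 stayed within 1.5 times the value reported. These 38 include all settings of the GstE cluster, where a shorter list could give only 0.

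No paired analysis was possible because the series has 1 group. Depth is unknown, and no input or untagged sample was analysed here, so a gene without a peak is one where none was detectable.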
